A study of Homo sapiens with 48 samples.

Results

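Knockouts of 8 genes were followed in a pooled CRISPR screen of human squamous carcinoma cells: VIM, BASP1, INHBA, PTHLH, TNFRSF12A, PDPN, CDH13 and TNC. They were chosen by name as markers of the keratinocytes at the invasive edge of squamous tumors and of mesenchymal change, leaving out integrins, laminins, serpins and proteases. They are 8 of the 327 genes in the deposited tables. Each value is the change in abundance of a gene's knockouts between the initial cells and a later culture or tumor. It measures how the knockout cells fared and not how much of the gene was expressed. In tumors, loss of cells at engraftment cannot be told apart from growth.

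At the invasive edge of squamous carcinomas, some keratinocytes loosen their junctions, take on features of mesenchymal cells and secrete factors that act on the stroma. Vimentin filaments, podoplanin and tenascin-C are widely used as markers of such cells. A marker of a cell state need not be required for growth, which is the question a knockout screen addresses.

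The lines were A431, an epidermoid carcinoma line, CAL27, from a carcinoma of the tongue, and SCC13, from a carcinoma of the skin, each made to express the Cas9 nuclease stably. All cells, the initial ones included, carried Cas9 and a lentiviral guide from a library stated to target 334 genes with 136 non-targeting guides. The later samples were 2 cultures of A431 and 2 of CAL27 kept for 3 weeks, and 8 A431, 10 CAL27 and 16 SCC13 tumors taken about 2 months after cells in Matrigel were placed in the rear flanks of mice. A431 and CAL27 cells grew in SHO mice, which are hairless scid animals without T and B cells. SCC13 cells grew in NOD scid mice that also lack the interleukin-2 receptor gamma chain and so natural killer cells. The host strain therefore differed between SCC13 and the other lines and cannot be told apart from the line. No SCC13 culture was analysed here. Each table rests on 2 initial samples, whose error is in none of the tests, and which tumors grew in the same mouse is not stated in the labels.

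Values are in log units; no source used here gives the base of the logarithm. The non-targeting guides stood at 0 in all 38 columns, and the median gene lay below them in all columns but 1. Its position ranged from -0.55 to -0.07 in A431 tumors, from -1.50 to -0.56 in CAL27 tumors and from -2.67 to 0.53 in SCC13 tumors. Each column was therefore centred on its median gene, and a positive centred value means that a knockout did better than the median knockout of the library. The spread over genes (SD) within a column was 0.42 to 1.34 in A431 tumors, 1.09 to 2.23 in CAL27 tumors and 1.89 to 2.87 in SCC13 tumors. In SCC13 tumors 8 to 145 genes per column were at a floor, recognised where at least 4 genes had the same difference between 2 columns. The floor value differs from gene to gene and was taken as only a bound on the loss. SCC13 columns 3 and 7 stood apart with 136 and 145 genes at the floor, and column 3 was the one whose median gene lay above the non-targeting guides. The read depth behind the values is unknown.

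Relative to the median gene, 1 of the 8 knockouts was called lower in any group. In SCC13 tumors VIM, INHBA, TNFRSF12A, BASP1 and CDH13 knockouts were higher than the median gene, and PTHLH knockouts were lower. In CAL27 tumors INHBA and VIM knockouts were higher. In A431 tumors and in both cultures none of the 8 passed the threshold, a limma adjusted p under 0.05 over all 327 genes.

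Without SCC13 columns 3 and 7 the same 6 members passed in SCC13 tumors, where 47.4% of all genes did. Their means were then 2.91 for VIM, 2.80 for INHBA, 1.88 for TNFRSF12A, 2.05 for BASP1, 1.24 for CDH13 and -1.82 for PTHLH.

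These counts stood against a high background. In SCC13 tumors 6 of 8 members passed where 47.4% of all genes did, with 5 higher (background 23.5%) and 1 lower (background 23.9%). In CAL27 tumors 2 of 8 passed, both higher, where 40.7% of all genes passed in either direction and 18.7% were higher. In A431 tumors 0 of 8 passed where 19.9% of all genes did. There 2 members had an unadjusted limma p under 0.05, where 32.7% of all genes did. In culture 0 of 8 passed where 13.5% of genes did in A431 and 23.5% in CAL27. An unadjusted limma p under 0.05 was found for 3 and 2 members, beside 28.7% and 38.5% of all genes. The median of the 8 mean values was 1.44 log units in SCC13 tumors, 0.39 in A431 tumors and 0.03 in CAL27 tumors. Over all genes the median of the means was -0.02, 0.02 and 0.01.

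The reference matters for the direction. Relative to the non-targeting guides, as deposited, VIM and INHBA were still higher in SCC13 tumors (background 3.98% of genes higher), while PTHLH and TNC were lower (background 67.3% lower). In CAL27 tumors the deposited values gave 0 higher and 4 lower members (CDH13, PTHLH, TNFRSF12A and TNC; background 5.5% higher and 50.2% lower). In culture they gave 3 lower members in A431 (CDH13, TNFRSF12A and TNC; background 41.6%) and 7 in CAL27 (all but PDPN; background 89.6%). In A431 tumors no member passed on either scale, where on the deposited one 2.14% of genes were higher and 22.3% lower.

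**Figure D1:**
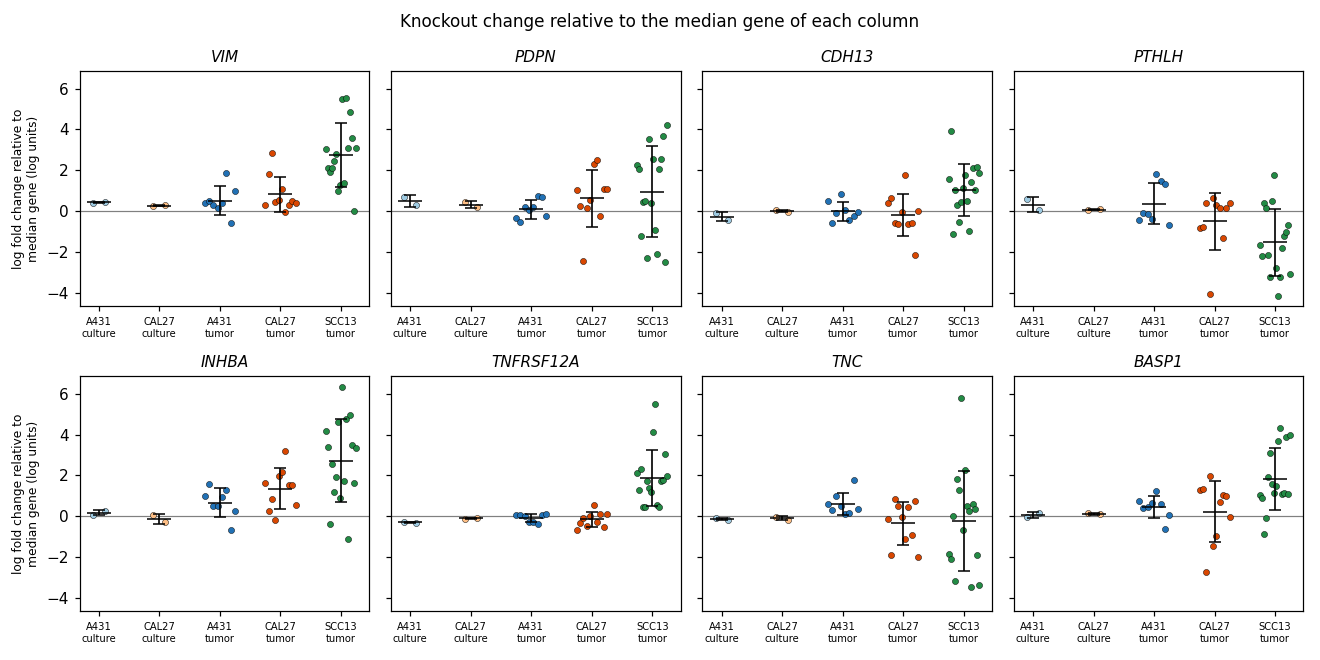
Change of each knockout relative to the median gene (vertical axis, log units) in each culture and tumor (points), with the mean and SD of each group. All 16 SCC13 tumors were above 0 for VIM and TNFRSF12A, and the TNFRSF12A points of A431 and CAL27 tumors were packed close to 0.

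Among the structural proteins, VIM encodes vimentin, the intermediate filament protein typical of mesenchymal cells. The gene lies on the plus strand of chromosome 10 from 17270240 to 17279592 (GRCh37, GENCODE annotation, as for the other genes here). VIM knockouts in the 2 A431 cultures stood at 0.42 and 0.44 log units, and in the 2 CAL27 cultures at 0.25 and 0.28. In A431 tumors the lowest value was -0.60, the median 0.40 and the highest 1.87. In CAL27 tumors these were -0.03, 0.46 and 2.83. In SCC13 tumors they were 0.01, 2.61 and 5.52, so all 16 tumors were above the median gene, although their range overlapped that of both other lines.

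The mean VIM value was 2.73 ± 1.57 (SD, n = 16) in SCC13 tumors, with a limma adjusted p of 3.90e-07, and ranked 11 from the highest of 327 genes. As deposited it was 1.11, above the non-targeting guides in 13 of 16 tumors (limma adjusted p = 0.0309). In CAL27 tumors the mean was 0.81 ± 0.87 (SD, n = 10), above the median gene in 9 of 10 tumors, with a limma adjusted p of 0.0459. That call was lost in 9 of 10 runs that left out 1 tumor, and as deposited the mean was -0.0021. In A431 tumors the mean was 0.50 ± 0.71 (SD, n = 8; limma adjusted p = 0.159).

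BASP1, on the plus strand of chromosome 5 from 17065707 to 17276952, encodes a membrane-attached protein that binds actin-regulating lipids and can act as a transcriptional corepressor. BASP1 knockouts in the 2 A431 cultures stood at -0.02 and 0.16, and in the 2 CAL27 cultures at 0.15 and 0.09. They ranged from -0.61 to 1.23 with a median of 0.52 in A431 tumors, and from -2.73 to 1.96 with a median of 0.84 in CAL27 tumors. In SCC13 tumors they ranged from -0.85 to 4.30 with a median of 1.32, and 14 of 16 tumors were above the median gene.

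The SCC13 mean of BASP1 was 1.84 ± 1.52 (SD, n = 16; limma adjusted p = 0.000396), while as deposited it was 0.23 and did not pass (limma adjusted p = 0.679). In CAL27 tumors the sign varied from tumor to tumor, with 6 of 10 above 0 and a mean of 0.22 ± 1.49 (SD, n = 10; limma adjusted p = 0.721). In A431 tumors 7 of 8 were above 0 and the mean was 0.44 ± 0.54 (SD, n = 8; limma adjusted p = 0.159).

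Of the secreted ligands, INHBA encodes the beta A subunit of inhibins and activins, and its dimer, activin A, signals through SMAD proteins. The gene lies on the minus strand of chromosome 7 from 41706766 to 41745432. INHBA knockouts in the 2 A431 cultures stood at 0.08 and 0.26, and in the 2 CAL27 cultures at 0.04 and -0.29. The lowest, median and highest values were -0.69, 0.74 and 1.60 in A431 tumors, and -0.18, 1.51 and 3.21 in CAL27 tumors. In SCC13 tumors they were -1.12, 2.96 and 6.35. Most tumors of every line were above the median gene, 7 of 8, 9 of 10 and 14 of 16 in that order, and the ranges of the lines overlapped.

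The INHBA mean was 2.72 ± 2.04 (SD, n = 16; limma adjusted p = 1.01e-06) in SCC13 tumors and 1.35 ± 1.01 (SD, n = 10; limma adjusted p = 0.00267) in CAL27 tumors. As deposited the SCC13 mean was 1.10 (limma adjusted p = 0.0344) and the CAL27 mean 0.54. INHBA was thus the only one of the 8 whose centred value passed in CAL27 and SCC13 tumors in every run that left out 1 tumor. In A431 tumors its mean was 0.67 ± 0.71 (SD, n = 8), with a limma adjusted p of 0.0579. Over the alternatives run that p ranged from 0.017 to 0.29, passing in 4 of 14, and it was 0.29 as deposited. Of these 8 A431 values, 2 were shared exactly with other genes: 0.98 in column 1, with FAM213A, HDAC1, KRT6A, TPM2 and USF2, and 1.60 in column 2, with IRX3. Without these columns the mean of the other 6 was 0.46 ± 0.68 (SD). Whether the shared values measure INHBA was not tested.

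PTHLH encodes parathyroid hormone-related protein, a secreted hormone made by keratinocytes and known as a cause of high blood calcium in squamous cancers. It lies on the minus strand of chromosome 12 from 28111017 to 28125666. PTHLH knockouts in the 2 A431 cultures stood at 0.58 and 0.05, and in the 2 CAL27 cultures at 0.04 and 0.09. In A431 tumors the values fell into high ones, 1.82, 1.45 and 1.32, and 5 between -0.70 and -0.11. In CAL27 tumors the lowest was -4.07, the median 0.14 and the highest 0.61. In SCC13 tumors the lowest was -4.14, the median -1.76 and the highest 1.77, and 12 of 16 tumors were below the median gene.

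PTHLH was the only member called lower than the median gene in SCC13 tumors, at -1.54 ± 1.63 (SD, n = 16; limma adjusted p = 0.00316), and as deposited it stood at -3.15 (limma adjusted p = 1.46e-07). The knockout was at the floor in 5 of the 16 SCC13 tumors, where its centred values were 0.38, -3.24, 0.47, -4.14 and -0.71. These values were taken as bounds, although 2 of the 5 lay above the median gene. With floor values left out the mean of the other 11 tumors was -1.58 and still passed (limma adjusted p = 0.0139). In CAL27 tumors the mean was -0.50 ± 1.41 (SD, n = 10; limma adjusted p = 0.327) and came to -0.11 without the tumor at -4.07. In A431 tumors it was 0.35 ± 1.00 (SD, n = 8; limma adjusted p = 0.445).

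**Figure D2:**
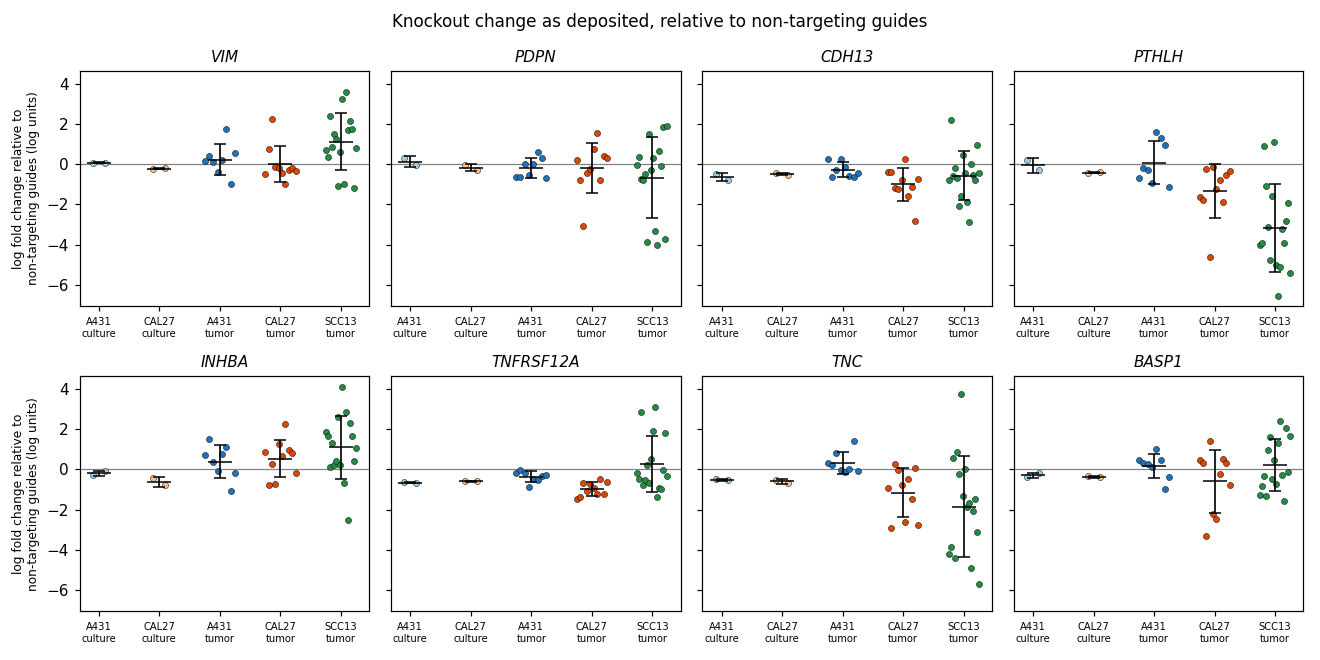
The same values as deposited, relative to the non-targeting guides (vertical axis, log units), for each culture and tumor (points) with the mean and SD of each group. VIM and INHBA in SCC13 tumors kept means above 0, at 1.11 and 1.10, whereas no TNFRSF12A value of A431 or CAL27 was above 0.

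Among the cell surface proteins, TNFRSF12A encodes the TWEAK receptor Fn14, a small member of the TNF receptor family that activates NF-kB signalling. It lies on the plus strand of chromosome 16 from 3068446 to 3072384. TNFRSF12A knockouts in the 2 A431 cultures stood at -0.27 and -0.31, and in the 2 CAL27 cultures at -0.12 and -0.08. The lowest, median and highest values were -0.37, 0.03 and 0.13 in A431 tumors, and -0.65, -0.18 and 0.57 in CAL27 tumors. In SCC13 tumors they were 0.44, 1.73 and 5.51. Every SCC13 tumor was thus above every A431 tumor on the centred scale, and the ranges of SCC13 and CAL27 overlapped. As deposited the SCC13 values, -1.37 to 3.12, overlapped those of A431, -0.86 to -0.02. The share of all genes that separate these lines without overlap is not given here.

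The SCC13 mean of TNFRSF12A was 1.88 ± 1.39 (SD, n = 16), above the median gene in 16 of 16 tumors, with a limma adjusted p of 0.000263. As deposited it was 0.26, above the non-targeting guides in 6 of 16 tumors (limma adjusted p = 0.634). The means were -0.08 ± 0.20 (SD, n = 8) in A431 and -0.16 ± 0.37 (SD, n = 10) in CAL27 tumors, with limma adjusted p-values of 0.779 and 0.702. The SD over tumors of this knockout was the lowest of all 327 genes in A431 and in CAL27 tumors, where the median gene had an SD of 0.62 and 1.09. In SCC13 tumors its SD ranked 290 from the highest. On the deposited scale it ranked 323, 327 and 304 from the highest in A431, CAL27 and SCC13 tumors, and none of the 8 A431 and 10 CAL27 tumors was above the non-targeting guides. What fixes the small spread was not tested.

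**Figure D3:**
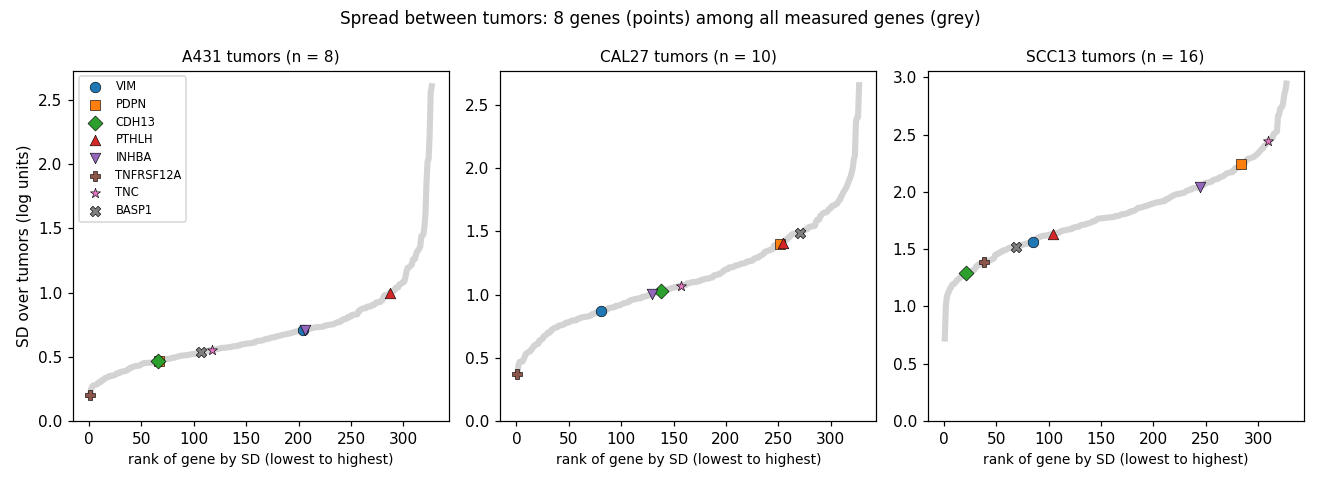
SD over tumors (vertical axis, log units) of every measured gene, ordered from lowest to highest (grey), with the 8 genes marked, in A431, CAL27 and SCC13 tumors. TNFRSF12A is the first gene at the left in A431 (0.20) and CAL27 (0.37), and TNC lies near the right end in SCC13 (2.44).

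PDPN encodes podoplanin, a mucin-like glycoprotein of lymphatic vessels and of invading carcinoma cells that links the membrane to the actin skeleton. It lies on the plus strand of chromosome 1 from 13909960 to 13944452. PDPN knockouts in the 2 A431 cultures stood at 0.68 and 0.30, and in the 2 CAL27 cultures at 0.43 and 0.20. The lowest, median and highest values were -0.55, 0.11 and 0.75 in A431 tumors, -2.47, 0.77 and 2.51 in CAL27 tumors and -2.51, 1.27 and 4.23 in SCC13 tumors. All groups overlapped, and the values lay on both sides of 0 in every tumor group.

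No PDPN mean passed. It was 0.09 ± 0.47 (SD, n = 8) in A431, 0.62 ± 1.40 (SD, n = 10) in CAL27 and 0.95 ± 2.24 (SD, n = 16) in SCC13 tumors, with limma adjusted p-values of 0.786, 0.226 and 0.0961. In culture the means were 0.49 in A431 and 0.32 in CAL27, each from 2 cultures, with limma adjusted p-values of 0.109 and 0.0982. These culture values and those of VIM, 0.43 and 0.26, passed when columns were centred on their mean. PDPN then reached limma adjusted p-values of 0.0451 and 0.00704 and VIM 0.033 and 0.00688. With that centring 15.6% of all genes passed in A431 culture and 56.6% in CAL27 culture. As deposited the direction in CAL27 culture turned: VIM was lower there at -0.22 (limma adjusted p = 0.0397), and PDPN stood at -0.17 and did not pass. In A431 culture the deposited means of PDPN and VIM were 0.12 and 0.06, with limma adjusted p-values of 0.446 and 0.614.

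CDH13 encodes T-cadherin, a cadherin anchored to the membrane by a lipid and lacking the usual cytoplasmic tail. It lies on the plus strand of chromosome 16 from 82660570 to 83834245. CDH13 knockouts in the 2 A431 cultures stood at -0.12 and -0.42, and in the 2 CAL27 cultures at 0.03 and -0.04. The lowest, median and highest values were -0.59, -0.07 and 0.81 in A431 tumors, -2.17, -0.31 and 1.75 in CAL27 tumors and -1.13, 1.09 and 3.93 in SCC13 tumors. In SCC13 13 of 16 tumors were above the median gene, against 3 of 8 in A431 and 3 of 10 in CAL27.

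The SCC13 mean of CDH13 was 1.04 ± 1.29 (SD, n = 16; limma adjusted p = 0.0431). That call was near the threshold: it was lost in 10 of 16 runs that left out 1 tumor, when columns were divided by their spread (limma adjusted p = 0.0567) and without genes at the floor in over 50% of columns (limma adjusted p = 0.0544). As deposited the mean was -0.58, so the direction turned. The CAL27 mean was -0.19 ± 1.03 (SD, n = 10; limma adjusted p = 0.715), and the A431 mean was -0.00435 ± 0.47 (SD, n = 8).

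TNC encodes tenascin-C, a large matrix glycoprotein laid down at wound edges and around invading tumor nests. It lies on the minus strand of chromosome 9 from 117781854 to 117880486. TNC knockouts in the 2 A431 cultures stood at -0.10 and -0.18, and in the 2 CAL27 cultures at -0.04 and -0.18. In A431 tumors the lowest value was 0.09, the median 0.43 and the highest 1.77, so all 8 were above the median gene and above both cultures. In CAL27 tumors these were -2.0, -0.08 and 0.86, and in SCC13 tumors -3.48, 0.14 and 5.80, on both sides of 0. The share of all genes whose A431 tumors all lay above both cultures is not given here.

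The A431 mean of TNC was 0.60 ± 0.55 (SD, n = 8), with a limma adjusted p of 0.0576. Over the alternatives run that p ranged from 0.0299 to 0.288, passing in 4 of 15, and it was 0.288 as deposited. The CAL27 mean was -0.35 ± 1.07 (SD, n = 10; limma adjusted p = 0.428). The SCC13 mean was -0.22 ± 2.44 (SD, n = 16; limma adjusted p = 0.742), and its SD ranked 19 from the highest of 327 genes. TNC was at the floor in 4 of the 16 SCC13 tumors, and over the other 12 the mean was 0.43, with the sign turned. As deposited the SCC13 mean was -1.84 and passed (limma adjusted p = 0.0016).

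**Figure D4:**
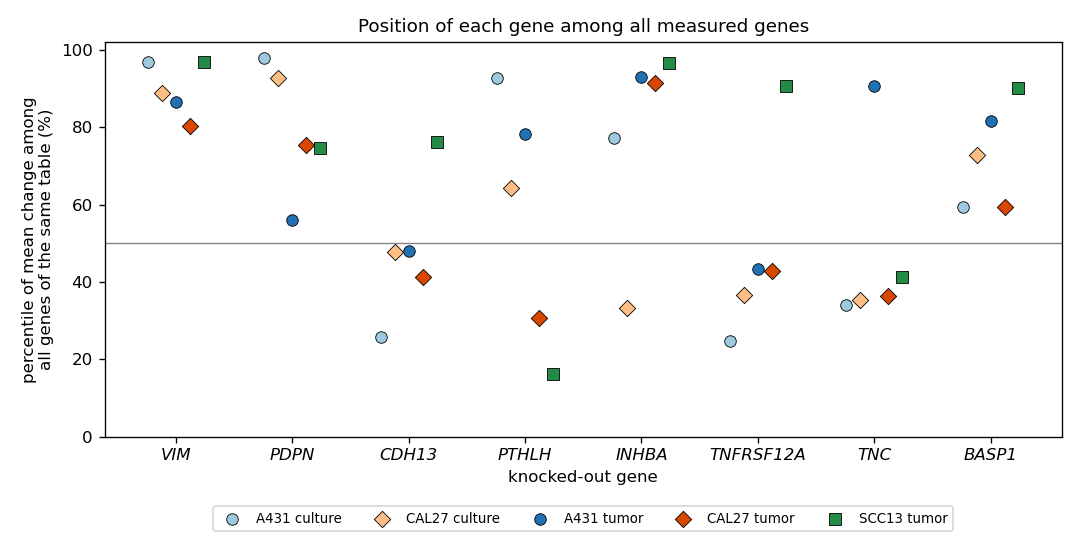
Percentile of each gene's mean change among all 327 genes of the same table (vertical axis, percent) in the 5 groups (points). VIM lay above the 80th percentile in all groups, from 80.4 to 96.9, while PTHLH ran from 16.2 in SCC13 tumors to 92.7 in the A431 cultures.

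The position of a knockout among all genes removes most of the difference in spread between tables. On this measure VIM was at percentile 96.9 in the A431 cultures and in SCC13 tumors, 89.0 in the CAL27 cultures, 86.5 in A431 tumors and 80.4 in CAL27 tumors. INHBA was at 93.0, 91.4 and 96.6 in A431, CAL27 and SCC13 tumors and at 77.4 and 33.3 in the A431 and CAL27 cultures. TNFRSF12A was at 43.4, 42.8 and 90.8 in the tumors of A431, CAL27 and SCC13. PTHLH was at 78.3, 30.6 and 16.2 in the same order. These percentiles are descriptions without a test.

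The tumors of the lines were next compared in 1 fit. A moderated F test in limma found 5 of 8 members differing among lines (VIM, PTHLH, INHBA, TNFRSF12A and BASP1), where 26.6% of all genes did. Between SCC13 and A431 tumors 4 of 8 passed, where 21.1% of all genes did; 3 were higher in SCC13 (background 10.4%) and 1 lower (background 10.7%). Between SCC13 and CAL27 tumors 3 of 8 passed, all higher in SCC13, where 17.7% of all genes passed and 9.79% were higher. Between CAL27 and A431 tumors 0 of 8 passed, where 3.36% of all genes did. There 0 members had an unadjusted limma p under 0.05, where 17.7% of all genes did. That fit used 1 spread for the 3 lines, including the more widely spread SCC13 tumors. When each table kept its own spread, 0 of 8 passed where 22.3% of all genes did. An exact permutation test of TNC gave an unadjusted p of 0.037, the lowest of the 8. The contrasts with SCC13 share its tumors and are not independent.

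VIM was 2.23 higher in SCC13 than in A431 tumors (95% interval 1.06 to 3.41; limma adjusted p = 0.00571) and 1.92 higher than in CAL27 tumors (0.82 to 3.01; limma adjusted p = 0.00964). TNFRSF12A was 1.96 higher than in A431 (0.86 to 3.06; limma adjusted p = 0.00907) and 2.04 higher than in CAL27 tumors (1.01 to 3.06; limma adjusted p = 0.00291). These were the members that differed from both other lines. INHBA was 2.05 higher in SCC13 than in A431 tumors (0.75 to 3.34; limma adjusted p = 0.0182), and its difference of 1.36 from CAL27 did not pass (0.16 to 2.57; limma adjusted p = 0.106). BASP1 was 1.63 higher than in CAL27 tumors (0.49 to 2.76; limma adjusted p = 0.0362), and its difference of 1.41 from A431 did not pass (0.19 to 2.63; limma adjusted p = 0.10). The BASP1 call was lost in 8 of 34 runs that left out 1 tumor.

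PTHLH was the only member that passed in the other direction, with an SCC13 minus A431 difference of -1.89 (-3.14 to -0.63; limma adjusted p = 0.0248), lost in 3 of 34 runs that left out 1 tumor. Its difference of -1.03 from CAL27 did not pass (-2.20 to 0.13; limma adjusted p = 0.219). The CDH13 differences of 1.04 from A431 and 1.23 from CAL27 did not pass, with limma adjusted p-values of 0.207 and 0.0898, nor did those of PDPN, 0.86 and 0.33, and TNC, -0.82 and 0.13. Between CAL27 and A431 tumors the intervals, which rest on the spread of all 3 lines, allowed differences of either sign for all 8 knockouts. They ran from -0.97 to 1.60 for VIM and from -0.74 to 2.10 for INHBA. Permutation tests of single genes gave unadjusted p-values of 0.00112 and 0.00173 for VIM against A431 (exact) and CAL27 (100000 resamples), and 0.000596 and 8e-05 for TNFRSF12A.

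**Figure D5:**
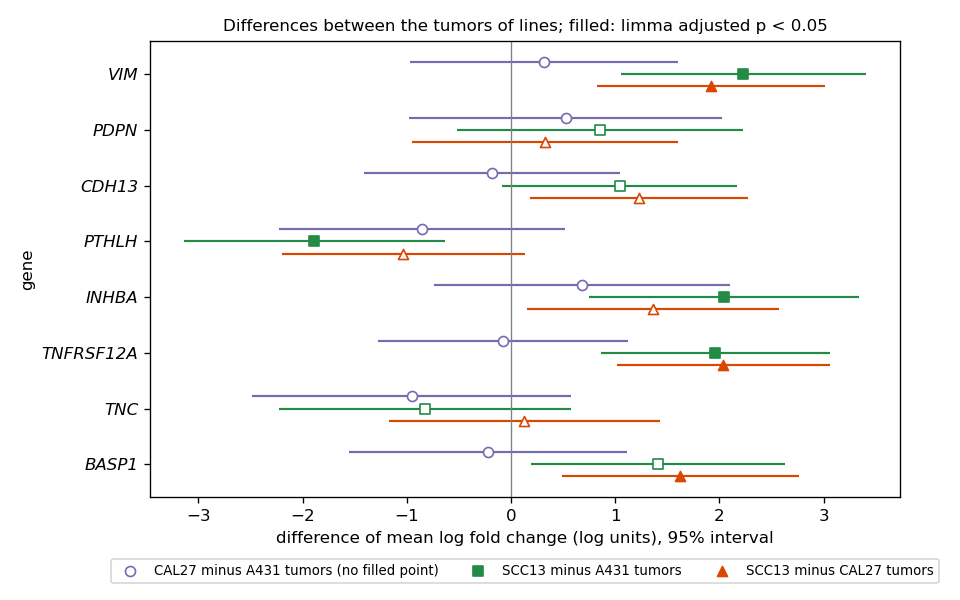
Difference of the mean change (horizontal axis, log units, with 95% interval) between the tumors of each pair of lines for the 8 genes; filled points passed a limma adjusted p of 0.05. VIM and TNFRSF12A were filled in both SCC13 contrasts, and no CAL27 minus A431 point was filled.

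Without SCC13 columns 3 and 7 the 4 members that differed from A431 passed again, joined by BASP1 at 1.62 (limma adjusted p = 0.0389). Of all genes 25.1% then passed, beside 21.1% with these columns. Against CAL27 the 3 members passed again, joined by CDH13 at 1.42 (limma adjusted p = 0.0374), where 20.2% of all genes passed, beside 17.7% with these columns.

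The values of SCC13 tumors were spread more widely over all genes, and this moved with the differences. When each column was divided by its own spread over genes (median absolute deviation), TNFRSF12A was the only member still called, against A431 (0.90 in units of that spread; limma adjusted p = 0.0122) and against CAL27 (0.93; limma adjusted p = 0.00367). The VIM difference from A431 then had a limma adjusted p of 0.245 and that of INHBA 0.794. On the deposited scale no member passed as higher in SCC13 than in another line. There VIM differed by 0.89 from A431 and 1.11 from CAL27 tumors, with limma adjusted p-values of 0.217 and 0.145. INHBA differed by 0.70 and 0.56 (limma adjusted p = 0.361 and 0.508), and TNFRSF12A by 0.62 and 1.23 (limma adjusted p = 0.387 and 0.0768). PTHLH was then lower in SCC13, with differences of -3.23 from A431 and -1.84 from CAL27 (limma adjusted p = 0.000339 and 0.037), and TNC was lower than in A431, with a difference of -2.17 (limma adjusted p = 0.0185). On that scale 38.5% of all genes differed between SCC13 and A431 tumors in either direction, and 37% were lower in SCC13. Against CAL27 tumors 24.5% of all genes differed and 20.8% were lower in SCC13. Few genes of the library were thus higher in SCC13 on that scale, members or not. The part of the wider spread of SCC13 columns in the centred differences was not tested further.

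Tumors were compared with culture for A431 and CAL27. With 1 spread fitted for both settings, 0 of 8 members passed in either line, where 0% of all genes did. An unadjusted limma p under 0.05 was found for 0 members, beside 6.12% of all genes in A431 and 9.17% in CAL27. The largest differences among the 8 were 0.74 for TNC in A431 (95% interval -0.20 to 1.67; limma adjusted p = 0.812) and 1.48 for INHBA in CAL27 (-0.12 to 3.08; limma adjusted p = 0.60). The TNC values of the A431 cultures were -0.10 and -0.18 against 0.09 to 1.77 in tumors, which did not overlap. The share of all genes without such an overlap is not given here. For INHBA the CAL27 cultures at 0.04 and -0.29 overlapped the lowest of the tumors. When each setting kept its own spread, both passed, TNC with an adjusted p of 0.0484 (background 6.73% higher) and INHBA with 0.00314 (background 17.7% higher), limma being fitted to each table. The spread of culture then came from only 2 cultures. Exact permutation tests gave p = 0.111 for TNC and p = 0.106 for INHBA, where the smallest p possible was 0.0222 and 0.0152.

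Between the CAL27 and A431 cultures 0 of 8 members passed, where 3.06% of genes did. There 0 members had an unadjusted limma p under 0.05, where 22.6% of all genes did. The difference between tumor and culture was not called different between CAL27 and A431 for any of the 8, where 0% of genes passed. An unadjusted limma p under 0.05 was found for 0 members, beside 2.75% of all genes.

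The genes whose values moved most like each member over the 34 tumors were found after removing each table's mean and the spread of each column. These correlations are descriptions, over columns that share the initial cells of their table. The highest was 0.58 for VIM with DSG1, a desmosomal cadherin, followed by 0.56 for VIM with NUSAP1, a spindle protein. INHBA was most like the integrin subunit ITGA6 (0.54) and the histone gene HIST1H1D (0.48). PDPN was most like CXADR (0.54) and EZH2 (0.47), and PTHLH like KPNA2 (0.52) and EZH2 (0.46). TNFRSF12A was most like ADM (0.53) and RRM2 (0.52), TNC like S100A10 (0.50) and KIF20B (0.48), BASP1 like FHL2 (0.53) and ITGB6 (0.44), and CDH13 like NMU (0.41) and E2F8 (0.37). The genes named for each member were picked as the highest over all genes, so high values follow from the choice. The level that only the top percent of all genes passed ran, by member, from 0.31 for CDH13 to 0.50 for TNFRSF12A. The 8 genes did not track each other: their 28 pairs had correlations from -0.43 to 0.37 with a median of 0.03, beside a median of 0.02 over all pairs of genes.

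Related genes give the setting for these values. Of 17 measured integrin, laminin, serpin and protease genes of the invasive edge, 4 were lower and 2 higher in A431 tumors, 4 lower and 3 higher in CAL27 and 3 lower and 1 higher in SCC13. That is 35.3%, 41.2% and 23.5% of the list, beside 19.9%, 40.7% and 47.4% of all genes. Their median means were -0.07, 0.08 and 0.24, beside 0.02, 0.01 and -0.02 over all genes. The lowest were ITGB1, the common integrin beta 1 subunit, at -2.26 ± 0.83 in A431 and -2.73 ± 1.52 in SCC13 tumors, and the integrin activator FERMT1 at -4.14 ± 1.24 in CAL27 tumors. The limma adjusted p-values were 7.74e-05, 3.82e-07 and 6.48e-08. The highest were the collagen chaperone SERPINH1 at 0.76 in A431, and the hemidesmosome subunit ITGB4 at 1.59 in CAL27 and 2.42 in SCC13 tumors. None of the 8 members reached means as low as those of ITGB1 and FERMT1.

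A list of other mesenchymal and contractile genes held CALD1, TPM1, TPM2, FLNA, LGALS1, SPARC, TGFBI and COL17A1, the last a collagen of epithelial hemidesmosomes. Of these 8, none was lower in any tumor group, and 1, 2 and 3 were higher in A431, CAL27 and SCC13 tumors. These shares, 12.5%, 25% and 37.5%, stand beside 19.9%, 40.7% and 47.4% of all genes called, and the list's median means were 0.06, 0.40 and 0.27. The highest was TPM2, a tropomyosin, at 3.96 ± 2.41 (limma adjusted p = 1.44e-10) in SCC13 tumors, and it too shared exact values with other genes in some columns. Of 5 genes of TGF-beta and activin signalling, the pathway of INHBA, none was lower in CAL27 or SCC13 tumors. Only CYR61, a matrix-associated signalling protein, was higher in these. It stood at 1.08 ± 1.14 (SD, n = 10, limma adjusted p = 0.018) in CAL27 and 1.72 ± 2.13 (SD, n = 16, limma adjusted p = 0.00163) in SCC13 tumors. That is 20% of the list in each, beside 40.7% and 47.4% of all genes. As deposited the CYR61 means were 0.27 and 0.10. Of 2 genes of the NF-kB pathway downstream of TNFRSF12A, RELA was lower in A431 tumors at -0.85 (limma adjusted p = 0.0143) and neither passed in the tumors of the other lines. That is 50%, 0% and 0% of the list, beside 19.9%, 40.7% and 47.4% of all genes. In CAL27 culture 1 of the 2 was also lower, where 23.5% of all genes were called. Of 13 epithelial junction genes, 2, 2 and 3 were higher and none lower, led by JUP at 1.09 in A431, DSG1 at 1.13 in CAL27 and GJB2 at 2.10 in SCC13 tumors. These were 15.4%, 15.4% and 23.1% of the list, beside the same 19.9%, 40.7% and 47.4% of all genes, and the list's median means were -0.0055, 0.07 and 0.62.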

How the data were processed

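Guides were sequenced from genomic DNA of A431, CAL27 and SCC13 cells. The submitters' processing notes name Bowtie2. The sources used here do not give its version, the base of the logarithm, any pseudocount, the build or how guides were combined into genes. For each line and setting the authors deposited a table of a score per gene, a log fold change per the labels, without read counts. A negative value was taken as loss of the knockout, which the tables do not state. The columns carry no replicate numbers and were used as samples of their group.

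Each column was centred on its median over 327 genes and each table fitted with limma 3.58.1 (R 4.3.3; lmFit, eBayes), with Benjamini-Hochberg adjustment over all genes at 0.05. Tables were joined in 1 fit for differences between lines and settings, which assumes that they share a log base. The p-values reflect only how far tumors, or cultures, of a group differed. Values were said to be shared when equal to 9 decimals, and to be at the floor when at least 4 genes had the same difference between 2 columns of a table to 6 decimals. Permutation tests were two-sided. Summaries used Python 3.11.15 and pandas 2.3.3, and the fits were tested on simulated data.

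The text names all 8 members, the 2 genes most like each by correlation, and the lowest and highest passing gene of each related list in each tumor table, of which 1 is not reported here. The members and lists were chosen with earlier results of these data known. Alternatives were the deposited scale, mean centring, division by the median absolute deviation, a robust and trended spread, column weights, own spread per table, exclusion of genes with shared or floor values, and leaving out each column. Leaving floor values out and omitting SCC13 columns 3 and 7 were added after seeing the data. Gene positions are from GENCODE lifted to GRCh37, and no guide sequences were used here.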

Additional observations from a re-analysis of the deposited data

Results flagged for a closer look

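The lowest PTHLH value of the 10 CAL27 tumors, -4.07, stood further from the others than Dixon's 95% limit allows. It was 1 such value among 16 sets of A431 and CAL27 tumors, SCC13 not being examined, and chance alone marks about 5% of sets. Without it the other 9 values lay between -1.33 and 0.61.

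Other results are given here because the change in tumors differed between lines in limma. Between SCC13 and A431 tumors the difference was 2.23 for VIM, -1.89 for PTHLH, 2.05 for INHBA and 1.96 for TNFRSF12A. Between SCC13 and CAL27 tumors it was 1.92 for VIM, 2.04 for TNFRSF12A and 1.63 for BASP1.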

How the results depend on the processing

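The signs of VIM, INHBA, TNFRSF12A, BASP1 and PTHLH in SCC13 tumors and of INHBA in CAL27 tumors held under all alternatives run. The counts of called members moved as follows, and the causes were not tested. Each has beside it the share of all genes called under the same alternative, except most counts from leaving out 1 column. As deposited, called members numbered 4 in CAL27 tumors (55.7%), 4 in SCC13 tumors (71.3%), 3 in A431 culture (41.9%) and 7 in CAL27 culture (89.6%). They numbered 2 and 1 in the SCC13 contrasts with A431 (38.5%) and CAL27 (24.5%), and 2 among lines (42.2%). Mean centring gave 2 in A431 tumors (21.1%), 2 in A431 culture (15.6%) and 4 in CAL27 culture (56.6%), and 2 for SCC13 against CAL27 (16.5%). Division by the median absolute deviation gave 2 in A431 tumors (23.9%), 5 in SCC13 tumors (43.7%), 1 in A431 culture (20.5%), 1 for SCC13 against A431 (11.9%), 1 against CAL27 (16.8%) and 1 among lines (25.7%). A robust and trended spread gave 2 in A431 tumors (21.4%), 2 in A431 culture (17.4%) and 2 in CAL27 culture (39.1%). Column weights gave 1 in A431 tumors (14.7%), 1 in CAL27 tumors (39.4%) and 1 for CAL27 tumors against culture (23.2%), and 5 and 4 in the SCC13 contrasts (28.7% and 18%). Leaving out genes with shared values, INHBA among them, gave 1 in CAL27 tumors (37.9%), 5 in SCC13 tumors (45.8%) and 1 in CAL27 culture (35.9%). Leaving out genes at the floor in over 50% of the columns gave 5 in SCC13 tumors (36.9%). An own spread per table gave 1 for tumors against culture in A431 (12.2%) and in CAL27 (32.7%). Leaving out 1 column gave 0 to 1 called members in A431 tumors (1 without column 7, where 12.5% of all genes were called). It gave 1 to 2 in CAL27 tumors and 5 to 7 in SCC13 tumors. It gave 3 to 5 for SCC13 against A431, 2 to 5 against CAL27 (5 without SCC13 column 3) and 2 to 5 among lines (2 without A431 column 7).

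Values that turned sign were uncalled before and after, except on the deposited scale. There VIM in CAL27 tumors and CDH13 in SCC13 tumors lost a call, and VIM, PTHLH and BASP1 in CAL27 culture gained one, as lower. As deposited, they were PDPN at -0.18 in A431 tumors; VIM at -0.0021, PDPN at -0.20 and BASP1 at -0.60 in CAL27 tumors; PDPN at -0.67 and CDH13 at -0.58 in SCC13 tumors. In culture they were PTHLH at -0.052, INHBA at -0.19 and BASP1 at -0.30 in A431, and VIM at -0.22, PDPN at -0.17, PTHLH at -0.41 and BASP1 at -0.36 in CAL27. Among deposited differences, they were PDPN at -0.031 and BASP1 at -0.24 for CAL27 tumors against culture, TNC at -0.087 and BASP1 at -0.065 for CAL27 against A431 culture, and VIM at -0.22 and PDPN at -0.012 for CAL27 against A431 tumors. For SCC13 they were PDPN at -0.49 and CDH13 at -0.30 against A431, and PDPN at -0.48 and TNC at -0.68 against CAL27.

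Mean centring turned CDH13 to 0.088 and TNFRSF12A to 0.011 in A431 tumors, and to 0.0020 and 0.033 in CAL27 tumors. In CAL27 culture it turned CDH13 to 0.18, INHBA to 0.059, TNFRSF12A to 0.083 and TNC to 0.077. It turned TNFRSF12A to 0.022 for CAL27 against A431 tumors and TNC to -0.061 for SCC13 against CAL27. Division by the median absolute deviation turned CDH13 to 0.039 in A431 tumors, VIM to -0.72 and PTHLH to -0.70 for A431 tumors against culture, and VIM to -0.084 for CAL27 against A431 tumors. For CAL27 tumors against culture it turned VIM to -0.41, PDPN to -0.72, TNFRSF12A to 0.24, TNC to 0.13 and BASP1 to -0.29. It also turned PDPN to -0.086 for SCC13 against CAL27 and PTHLH to 0.14 in the difference of tumor and culture between lines. Column weights turned CDH13 to 0.058 in A431 tumors and PTHLH to -0.15 for A431 tumors against culture. Leaving floor values out turned TNC to 0.43 in SCC13 tumors, and omitting SCC13 columns 3 and 7 turned TNC to -0.32 for SCC13 against CAL27.

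Leaving out 1 column turned the sign of these uncalled values. In tumors CDH13 ran from -0.12 to 0.079 and PDPN from -0.0041 to 0.18 in A431, and CDH13 from -0.40 to 0.032 in CAL27. Against culture PTHLH ran from -0.23 to 0.30 and VIM from -0.13 to 0.22 in A431, and BASP1 from -0.098 to 0.42 and CDH13 from -0.40 to 0.040 in CAL27. Between cultures TNC ran from -0.037 to 0.099, PDPN from -0.36 to 0.019, PTHLH from -0.51 to 0.020 and BASP1 from -0.041 to 0.15. Between CAL27 and A431 tumors BASP1 ran from -0.41 to 0.11 and CDH13 from -0.40 to 0.037. Between SCC13 and CAL27 tumors TNC ran from -0.27 to 0.35 and PDPN from -0.014 to 0.56. The BASP1 difference of tumor and culture between lines ran from -0.46 to 0.057.

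No paired analysis was possible because the columns carry no replicate numbers. Column weights were not run for the fits of cultures alone, and the filter on genes at the floor was not run where no gene was at the floor in over 50% of the columns. Without 1 of 2 cultures a table has values but no test. With no counts, the depth that limits each value is unknown.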
